A study of Homo sapiens with 16 samples.

Results

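The genes of cholesterol and fatty acid synthesis, with the genes that control them, were followed in RNA from 8 blood cancer cell lines. The set was a fixed list of 29 gene symbols, matched in the count tables by symbol; all 29 were present among 23230 genes, and all 29 passed the filter on low counts that left 13043 genes for testing. By role there were 7 enzymes up to farnesyl diphosphate (called here the mevalonate pathway), 9 enzymes from squalene to cholesterol, 5 genes of SREBP control, 2 genes of sterol transport and 6 genes of fatty acid synthesis and desaturation. Together they took 0.452% to 1.23% of the gene counts of a library.

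Each line gave a library with each of 2 peptides: Y518R, which binds DPY30 per the labels, and 3R, which does not and served as the control. DPY30 is a core subunit of the complexes that methylate lysine 4 of histone H3, among them those built on MLL proteins. The labels give a fusion of MLL to 4 lines: MLL-AF9 leukemia for MOLM13 and THP1, MLL-AF4 leukemia for RS4-11 and MLL-ENL leukemia for KOPN8. The other 4 lines were JURKAT (labelled a Myc dependent leukemia of T cells), K562 (BCR-ABL leukemia), P493-6 (a model of Burkitt's lymphoma) and RAJI (from such a lymphoma). All cells grew in Advanced RPMI with 2.5% fetal bovine serum, and serum carries cholesterol. Peptide dose and time of exposure were not given in the sources used here. There was 1 library per line and peptide, so the replicates of a comparison are cell lines, and each line stands for itself alone.

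Cells make cholesterol from acetyl-CoA through mevalonate, farnesyl diphosphate and squalene. The transcription factors SREBP1 and SREBP2, encoded by SREBF1 and SREBF2, sit in the endoplasmic reticulum with the escort protein SCAP, and the INSIG proteins hold them there when sterol is plentiful. When sterol is short they are cut and enter the nucleus, where SREBP2 mainly activates cholesterol genes and SREBP1 mainly activates fatty acid genes; INSIG1 is itself a target.

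Libraries held 19354300 to 43003124 gene counts. Reads outside any gene were 17.7% to 26.9% in 15 libraries and 44.7% in RAJI 3R, so results over all lines are given with and without RAJI where that matters. Lineage markers were checked, although the labels name a lineage only for JURKAT, RAJI and P493-6. The summed level of 5 B lineage markers was 1010 to 1570 CPM in RS4-11, KOPN8, RAJI and P493-6 and at most 20.8 CPM in the others. That of 5 T lineage markers was 1790 and 1670 CPM in JURKAT and at most 122 CPM elsewhere, in KOPN8, nearly all of it LCK. The sum of 5 monocytic markers was 641 to 919 CPM in MOLM13 and THP1 and at most 54.1 CPM elsewhere, in K562. Most of it in MOLM13 and THP1 was LYZ, with MPO at 5.79 to 24 CPM and FCN1 at or near 0. GATA1 was at 279 CPM in K562 3R. Levels are given as CPM, the count scaled to a common library size with TMM factors. CPM is not divided by gene length, so levels are compared between libraries and not between genes. In these bulk libraries a low level in all cells of a line and loss from some of its cells cannot be told apart.

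The promoters below show the letters in front of genes whose levels moved together across lines (HMGCS1 and INSIG1), of the regulator SREBF2, and of the neighbours FADS1 and FADS2. Sequences are from RefSeq (GRCh38.p14), run from 250 bases before to 50 after a gene's start, and are written 5′ to 3′ on the gene's strand. Capitals mark 3 motifs on either strand: TCACNCCAC, the core of the sterol regulatory element; CACGTG, the E-box; and CCAAT, the site of the factor NF-Y, which reads ATTGG on the other strand. No 2 motifs overlapped in the stretches printed. The spans are chr22:41832855-41833154 (plus strand) for SREBF2, chr5:43313363-43313662 (minus) for HMGCS1, chr7:155297628-155297927 (plus) for INSIG1, chr11:61816954-61817253 (minus) for FADS1 and chr11:61816154-61816453 (plus) for FADS2.
SREBF2: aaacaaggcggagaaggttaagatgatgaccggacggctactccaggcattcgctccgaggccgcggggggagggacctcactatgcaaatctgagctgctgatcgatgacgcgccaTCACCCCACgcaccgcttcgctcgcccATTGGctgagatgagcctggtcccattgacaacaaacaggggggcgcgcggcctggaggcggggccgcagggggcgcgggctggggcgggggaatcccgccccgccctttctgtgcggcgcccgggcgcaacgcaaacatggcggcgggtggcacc
HMGCS1: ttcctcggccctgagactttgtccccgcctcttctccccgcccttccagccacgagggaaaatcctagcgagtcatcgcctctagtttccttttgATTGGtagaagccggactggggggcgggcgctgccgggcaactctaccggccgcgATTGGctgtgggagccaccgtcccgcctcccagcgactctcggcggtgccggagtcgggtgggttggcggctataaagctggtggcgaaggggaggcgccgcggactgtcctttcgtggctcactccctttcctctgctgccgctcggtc
INSIG1: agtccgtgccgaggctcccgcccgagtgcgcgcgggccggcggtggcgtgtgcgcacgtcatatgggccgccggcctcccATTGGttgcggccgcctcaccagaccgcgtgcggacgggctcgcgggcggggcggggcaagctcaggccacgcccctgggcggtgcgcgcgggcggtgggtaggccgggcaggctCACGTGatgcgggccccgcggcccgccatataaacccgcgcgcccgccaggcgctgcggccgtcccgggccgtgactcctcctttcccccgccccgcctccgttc
FADS1: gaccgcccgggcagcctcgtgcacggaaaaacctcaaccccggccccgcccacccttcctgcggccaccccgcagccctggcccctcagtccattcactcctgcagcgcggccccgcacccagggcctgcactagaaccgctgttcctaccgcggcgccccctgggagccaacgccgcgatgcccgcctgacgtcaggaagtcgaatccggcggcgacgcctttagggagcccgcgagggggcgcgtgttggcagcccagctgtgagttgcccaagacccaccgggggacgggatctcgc
FADS2: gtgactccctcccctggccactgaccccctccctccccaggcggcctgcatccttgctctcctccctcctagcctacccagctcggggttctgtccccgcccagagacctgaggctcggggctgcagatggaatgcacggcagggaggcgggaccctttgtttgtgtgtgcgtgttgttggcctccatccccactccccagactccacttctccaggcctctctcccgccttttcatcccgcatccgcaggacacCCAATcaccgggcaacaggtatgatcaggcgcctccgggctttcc

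The RefSeq table held 34 promoters of 25 of the 29 genes, and ACAT2, FASN, FDFT1 and SQLE were without an entry in it. A CCAAT motif was present in 22 of the 34 promoters, belonging to 19 genes, against 34.6% of all 35116 promoters of the table. The E-box was present in 3 of the 34, those of INSIG1, LSS and SCAP, against 7.26% of all. The exact sterol core was present in 1 of the 34, that of SREBF2, against 1.13% of all. Another start of FADS2 (chr11:61815953-61816252) and another of HMGCS1 (chr5:43313132-43313431) held none of the 3 motifs. These are letter matches in one window and say nothing of binding.

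The first question was whether the DPY30-binding peptide changed these genes. None of the 29 passed the test over 8 lines at an adjusted p under 0.05 (edgeR quasi-likelihood test, cell line as the block), where 0% of all genes did. At an unadjusted p under 0.05 there was 1 of 29, against 3.04% of all genes. DESeq2 and limma-voom likewise called 0 of 29 in each comparison reported here. Log2 changes of Y518R relative to 3R ran from −0.19 to 0.11 with a median SE of 0.065; 18 of 29 were above 0, against 49.1% of all genes, and the median was 0.017. That median changed sign with other settings (−0.0035 with the GC correction, −0.0055 without MOLM13 and −0.0083 without KOPN8), so it gives no direction. Without RAJI 17 of 29 were above 0, the median was 0.0019, and 0 genes of the list had an unadjusted p under 0.05. A ratio in the same direction in all 8 lines was found for 0 of 29, against 0.491% of all genes. The estimates of the list and their errors over all lines, the MLL-fusion lines and the other lines are plotted together.

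**Figure D1:**
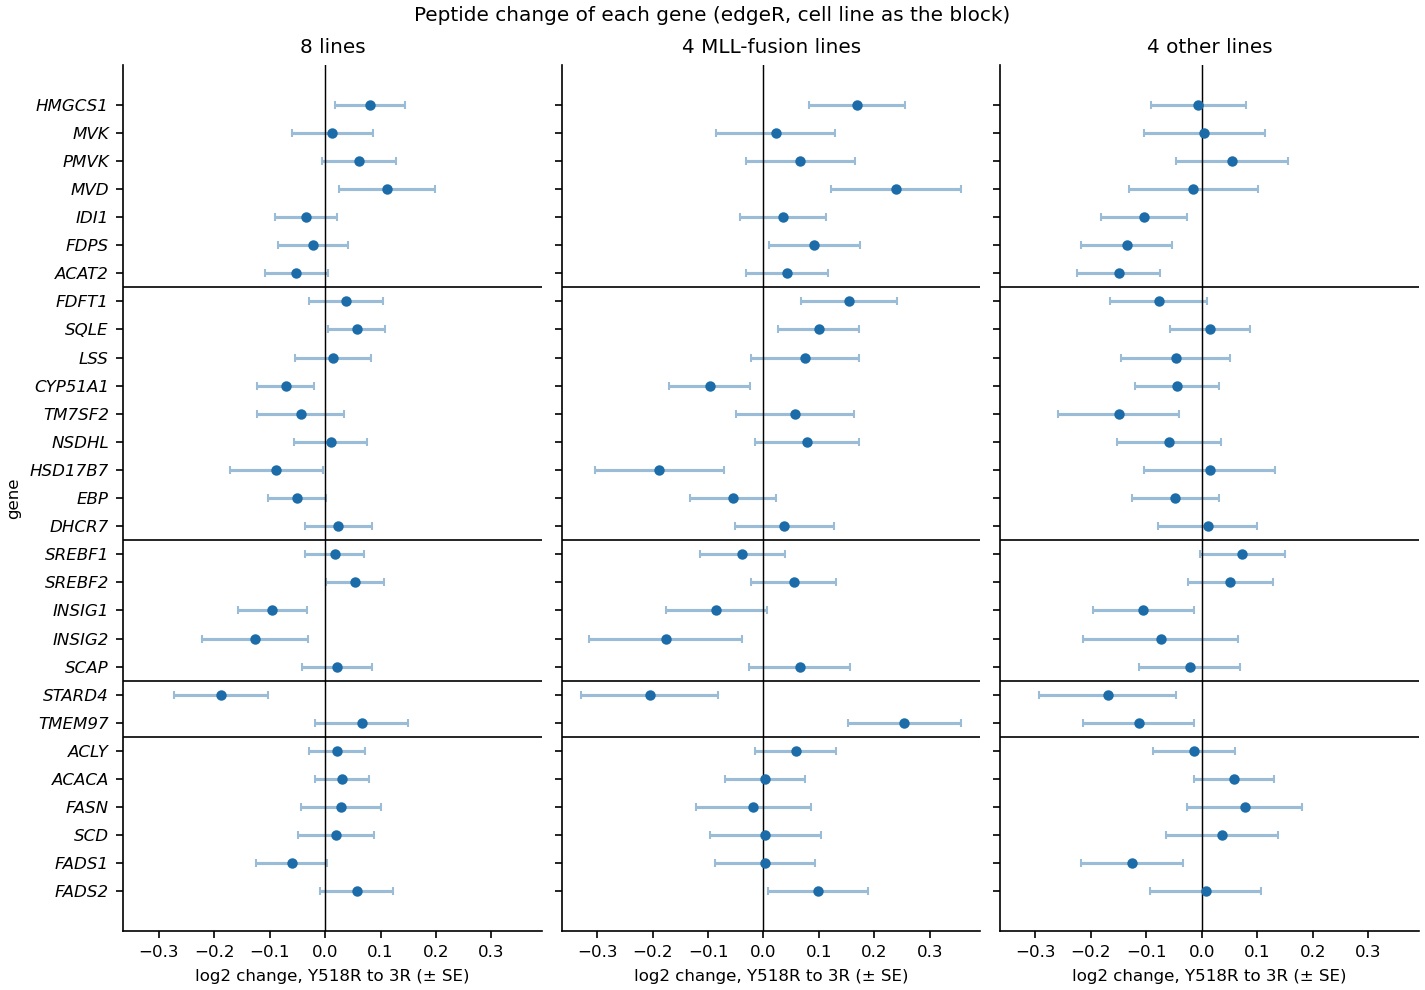
Log2 change of the 29 genes between Y518R and 3R in 8 lines, in the 4 MLL-fusion lines and in the 4 other lines; points are edgeR estimates, bars are SE, and black lines part the roles. Most bars reach or come near 0, and no gene passed at an adjusted p under 0.05 in any panel.

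In the mevalonate pathway, 4 of 7 genes were above 0 over the 8 lines. HMGCS1, the synthase that makes HMG-CoA and a classical SREBP2 target, was at 142 CPM (3R) and 139 CPM (Y518R) in MOLM13, 403 and 552 for THP1, 701 and 816 for RS4-11, and 820 and 838 for KOPN8. In the other lines it was at 565 and 515 CPM for K562, 553 and 567 for RAJI, 1070 and 1040 for JURKAT, and 210 and 229 for P493-6. The peptide groups overlapped throughout, MOLM13 and P493-6 were low with both peptides, and the largest difference within a line was in THP1. Its log2 change was 0.08 ± 0.063 (SE, n = 8 lines; 5 of 8 higher).

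Among the 9 enzymes from squalene onward, 5 were above 0 over the 8 lines. SQLE, squalene epoxidase, an early rate-controlling oxygenase of the sterol branch, was at 48.3 CPM (3R) and 48.0 CPM (Y518R) in MOLM13, 526 and 633 for THP1, 520 and 546 for RS4-11, and 300 and 313 for KOPN8. It was at 371 and 374 CPM for K562, 278 and 267 for RAJI, 302 and 291 for JURKAT, and 229 and 256 for P493-6. MOLM13 stood below every other line, while the peptide difference was small beside the range between lines (log2 change 0.06 ± 0.051). CYP51A1, lanosterol demethylase, had one of the 3 lowest p-values of the list over the 8 lines, at −0.07 ± 0.051 with 2 of 8 lines higher.

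Of the 5 control genes, 3 were above 0. SREBF2 was at 300 CPM (3R) and 334 CPM (Y518R) in MOLM13, 559 and 576 for THP1, 649 and 634 for RS4-11, and 510 and 531 for KOPN8. It was at 205 and 245 CPM for K562, 397 and 401 for RAJI, 366 and 330 for JURKAT, and 597 and 633 for P493-6. It was higher with Y518R in 6 of 8 lines, by a log2 change of 0.05 ± 0.052 that did not pass the test.

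SREBF1 was at 308 CPM (3R) and 270 CPM (Y518R) in MOLM13, 128 and 130 for THP1, 341 and 321 for RS4-11, and 152 and 163 for KOPN8. It was at 185 and 211 CPM for K562, 123 and 136 for RAJI, 212 and 196 for JURKAT, and 90.4 and 94.8 for P493-6. MOLM13 and RS4-11 were the highest lines and P493-6 the lowest with both peptides. The peptide log2 change was 0.02 ± 0.054 (5 of 8 higher).

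INSIG1, the sterol-regulated retention protein, was at 181 CPM (3R) and 132 CPM (Y518R) in MOLM13, 470 and 490 for THP1, 960 and 954 for RS4-11, and 767 and 796 for KOPN8. It was at 856 and 717 CPM for K562, 630 and 573 for RAJI, 870 and 819 for JURKAT, and 122 and 127 for P493-6. Its level was low in MOLM13 and P493-6, the lines in which HMGCS1 was low. The log2 change was −0.10 ± 0.062 (3 of 8 higher), and the peptide groups overlapped.

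STARD4 had the lowest p-value of the list over the 8 lines, and TMEM97 in the MLL-fusion lines and in the class difference. STARD4, a carrier that moves cholesterol between membranes, was at 33.2 CPM (3R) and 22.3 CPM (Y518R) in MOLM13, 59.1 and 52.1 for THP1, 67.1 and 71.2 for RS4-11, and 72.1 and 63.4 for KOPN8. It was at 57.6 and 42.8 CPM for K562, 76.0 and 54.1 for RAJI, 61.5 and 66.5 for JURKAT, and 42.0 and 45.5 for P493-6. It was lower with Y518R in 5 of 8 lines, by a log2 change of −0.19 ± 0.084 with an unadjusted p of 0.042 and an adjusted p of 0.9996. The change was −0.14 without MOLM13 and −0.15 without RAJI, the line whose 3R library had the most reads outside genes.

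TMEM97, the sigma-2 receptor, which binds the cholesterol exporter NPC1, was at 16.5 CPM (3R) and 27.2 CPM (Y518R) in MOLM13, 75.9 and 90.4 for THP1, 140 and 135 for RS4-11, and 141 and 159 for KOPN8. It was at 104 and 108 CPM for K562, 109 and 103 for RAJI, 221 and 182 for JURKAT, and 180 and 163 for P493-6. It was higher with Y518R in 3 of 4 MLL-fusion lines and 1 of 4 other lines. In the MLL-fusion lines the log2 change was 0.25 ± 0.10 (unadjusted p = 0.026, adjusted p = 0.83), and the difference between classes was 0.37 ± 0.14 (unadjusted p = 0.022, adjusted p = 0.9995). Without MOLM13 the change in the MLL-fusion lines was 0.13, and without RS4-11 it was 0.37.

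Of the 6 fatty acid genes, 5 were above 0 over the 8 lines. SCD, the desaturase that makes oleate, was at 1900 CPM (3R) and 1430 CPM (Y518R) in MOLM13, 613 and 734 for THP1, 729 and 762 for RS4-11, and 409 and 436 for KOPN8. It was at 1210 and 1140 CPM for K562, 1170 and 1380 for RAJI, 1410 and 1320 for JURKAT, and 997 and 1070 for P493-6. MOLM13, low for the sterol enzymes, was the highest line for SCD, and the peptide log2 change was 0.02 ± 0.069.

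FASN, fatty acid synthase, was at 369 CPM (3R) and 398 CPM (Y518R) in MOLM13, 1020 and 806 for THP1, 1010 and 984 for RS4-11, and 762 and 877 for KOPN8. It was at 1240 and 1390 CPM for K562, 758 and 883 for RAJI, 589 and 479 for JURKAT, and 481 and 561 for P493-6. The lines differed in direction, with THP1, RS4-11 and JURKAT lower and 5 of 8 lines higher (log2 change 0.03 ± 0.072). ACLY, which makes cytosolic acetyl-CoA from citrate, was higher in 7 of 8 lines by a small amount (0.02 ± 0.051), with JURKAT the exception.

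The labels separate lines by MLL fusion, so the peptide change was also fitted within each class. In the MLL-fusion lines 0 of 29 genes passed, against 0% of all genes; 1 of 29 had an unadjusted p under 0.05, against 5.9% of all genes. There 21 of 29 were above 0 (50.3% of all genes), with a median of 0.043, and all 7 mevalonate genes were above 0. In the other lines 0 of 29 passed, against 0%; 0 of 29 had an unadjusted p under 0.05, against 1.58%; and 11 of 29 were above 0 (48.7% of all genes), with a median of −0.022, which was 0.037 without JURKAT. The difference between classes, tested directly, was passed by 0 of 29 genes, against 0% of all; 1 of 29 had an unadjusted p under 0.05, against 3.8%. Here 20 of 29 estimates were above 0 (52.3% of all genes). With RAJI left out, 10 of 29 were above 0 in the other lines (48.9% of all genes), with a median of −0.027. In the class difference 21 of 29 were then above 0 (52.3% of all genes).

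In the MLL-fusion lines the next lowest p-values were those of MVD and HMGCS1. MVD, mevalonate diphosphate decarboxylase, was at 41.9 CPM (3R) and 69.2 CPM (Y518R) in MOLM13, 132 and 130 for THP1, 170 and 172 for RS4-11, and 138 and 168 for KOPN8. It was at 124 and 134 CPM for K562, 162 and 153 for RAJI, 180 and 142 for JURKAT, and 64.5 and 76.9 for P493-6. Its log2 change in the MLL-fusion lines, 0.24 ± 0.12, was 0.088 without MOLM13. In the same class HMGCS1 was at 0.17 ± 0.086, and 0.073 without THP1.

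In the other lines the lowest p-values were those of ACAT2, FDPS and STARD4. ACAT2, the cytosolic thiolase at the head of the pathway, was at 165 CPM (3R) and 157 CPM (Y518R) in K562, 187 and 152 for RAJI, 257 and 215 for JURKAT, and 20.6 and 21.3 for P493-6, a log2 change of −0.15 ± 0.075. In the MLL-fusion lines ACAT2 was at 87.0 and 94.5 CPM for MOLM13, 228 and 230 for THP1, 255 and 256 for RS4-11, and 234 and 240 for KOPN8. RAJI and JURKAT were lower with Y518R and the MLL-fusion lines were slightly higher. The furthest ratio was that of RAJI (−0.30 on the log2 scale), whose 3R library had the most reads outside genes.

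FDPS, farnesyl diphosphate synthase, was at 280 CPM (3R) and 256 CPM (Y518R) in K562, 468 and 413 for RAJI, 590 and 479 for JURKAT, and 143 and 150 for P493-6. It was at 215 and 265 CPM for MOLM13, 659 and 620 for THP1, 466 and 476 for RS4-11, and 388 and 425 for KOPN8. The class difference was 0.23 ± 0.12 and did not pass. FDFT1, squalene synthase, had a class difference of 0.23 ± 0.12, from 336 CPM (3R) and 446 CPM (Y518R) in MOLM13, 976 and 986 for THP1, 455 and 477 for RS4-11, 725 and 794 for KOPN8, 461 and 457 for K562, 645 and 521 for RAJI, 1040 and 967 for JURKAT, and 378 and 411 for P493-6. MOLM13 and RAJI moved furthest, in opposite directions. The RAJI ratio of FDFT1 (−0.31 on the log2 scale) rests on the 3R library with the most reads outside genes.

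Single lines had no replicate of either peptide and were not tested; their log2 ratios, with 1.5-fold as the mark, are a description, and intervals are exact 95% ones for counting error only. In MOLM13, 2 of 29 genes were at least 1.5-fold higher with Y518R, against 3.77% of all genes, and 1 was at least 1.5-fold lower, against 3.43%. These were MVD (log2 ratio 0.72, interval 0.61 to 0.84; 989 to 1451 counts), TMEM97 (0.72, interval 0.53 to 0.91; 390 to 570 counts) and HSD17B7, a sterol ketone reductase (−0.70, interval −0.90 to −0.52; 643 to 350 counts). With the trend in GC content taken off, MVD was at 0.55, below the mark, TMEM97 at 0.74 and HSD17B7 at −0.60. The list gave 0 genes past the mark in each direction in the other lines, against shares of all genes higher and lower of 5.49% and 3.27% in THP1, 0.15% and 0.0643% in RS4-11, 0.283% and 0.446% in KOPN8, 0.443% and 0.144% in K562, 0.697% and 3.98% in RAJI, 0.0854% and 0.214% in JURKAT, and 0.194% and 0.0969% in P493-6.

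Small shifts shared by many genes of the list were present in 3 lines. In JURKAT 3 of 29 genes were above 0 (47.7% of all genes), with a median log2 ratio of −0.17. In KOPN8 25 of 29 were above 0 (52.6%), with a median of 0.098, and in P493-6 25 of 28 at 10 CPM or more (46.2%), with a median of 0.082. The remaining lines had 14 of 29 above 0 in MOLM13, 18 of 29 in THP1, 14 of 29 in RS4-11, 15 of 28 in K562 and 13 of 28 in RAJI. The direction therefore differed between lines, JURKAT being lower and KOPN8 and P493-6 higher, and no difference between single lines was tested.

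**Figure D2:**
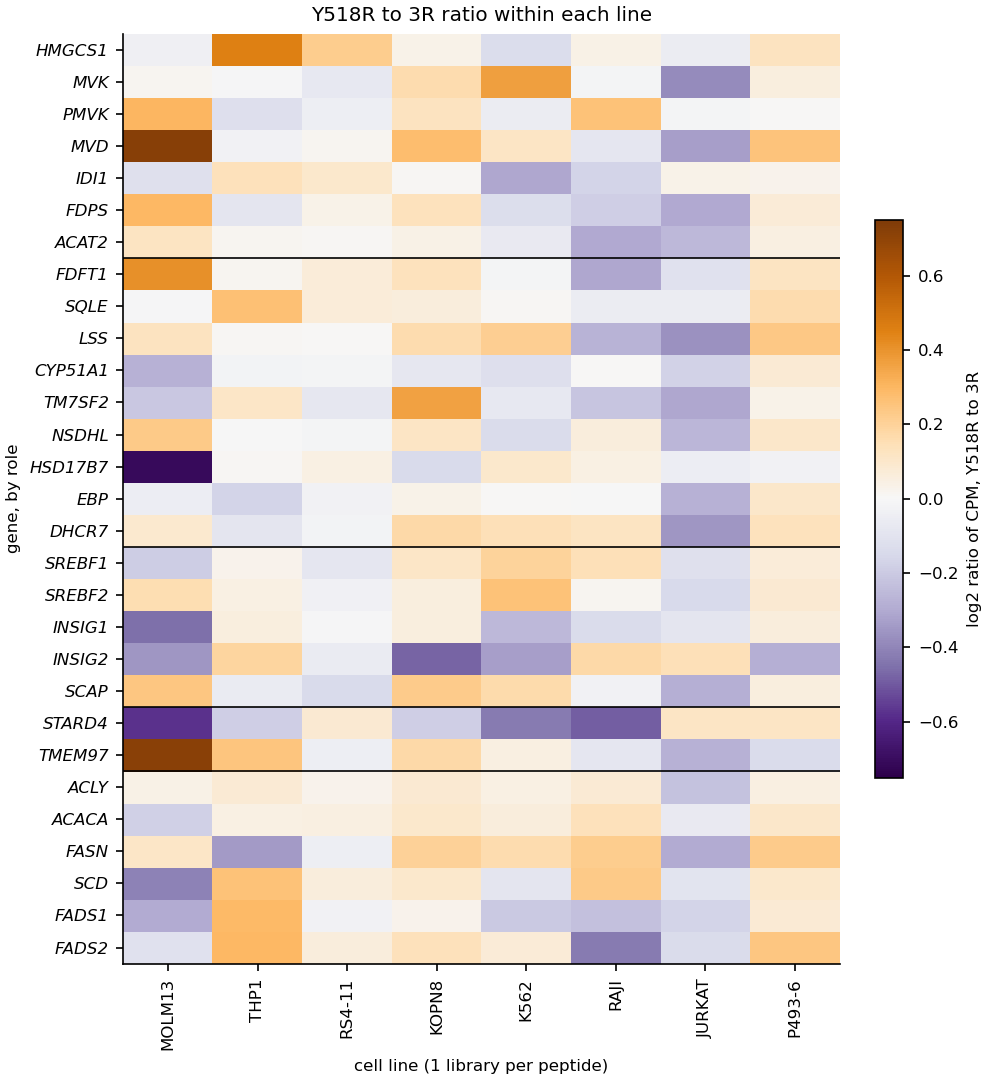
Log2 ratio of CPM, Y518R to 3R, for the 29 genes (rows, by role) in each line (columns, 1 library per peptide); orange is higher and purple lower with Y518R. JURKAT is mostly purple (3 of 29 above 0), KOPN8 and P493-6 mostly orange (25 of 29 and 25 of 28), and the deepest colours are MVD, TMEM97 and HSD17B7 in MOLM13.

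GC content moved with these ratios, to a degree that differed between lines. Across all genes the ratio correlated with the GC content of the longest transcript at −0.621 in JURKAT, 0.4 in KOPN8, 0.365 in P493-6, 0.502 in K562 and 0.347 for MOLM13 (Pearson, 8149 to 8678 genes, which are not independent). In the remaining lines it was weaker, at −0.278 in RS4-11, −0.127 in THP1 and −0.031 in RAJI. Within the list the values were −0.709 in JURKAT (29 genes), 0.794 in KOPN8 (29 genes) and 0.495 in P493-6 (28 genes). They were 0.718 in K562 (28 genes), 0.479 in MOLM13 (29 genes) and −0.539 in RS4-11 (29 genes). THP1 had −0.367 (29 genes) and RAJI 0.205 (28 genes). With the median ratio of each of 10 GC bins taken off, JURKAT had 4 of 29 genes above 0 and a median of −0.13, KOPN8 20 of 29 and 0.048, P493-6 24 of 28 and 0.076, and K562 10 of 28 in place of 15. Depth also differed: JURKAT had 35338785 gene counts with 3R and 23099132 with Y518R, and KOPN8 23830094 and 30956184. The part of depth and library preparation in these shifts was not tested.

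**Figure D3:**
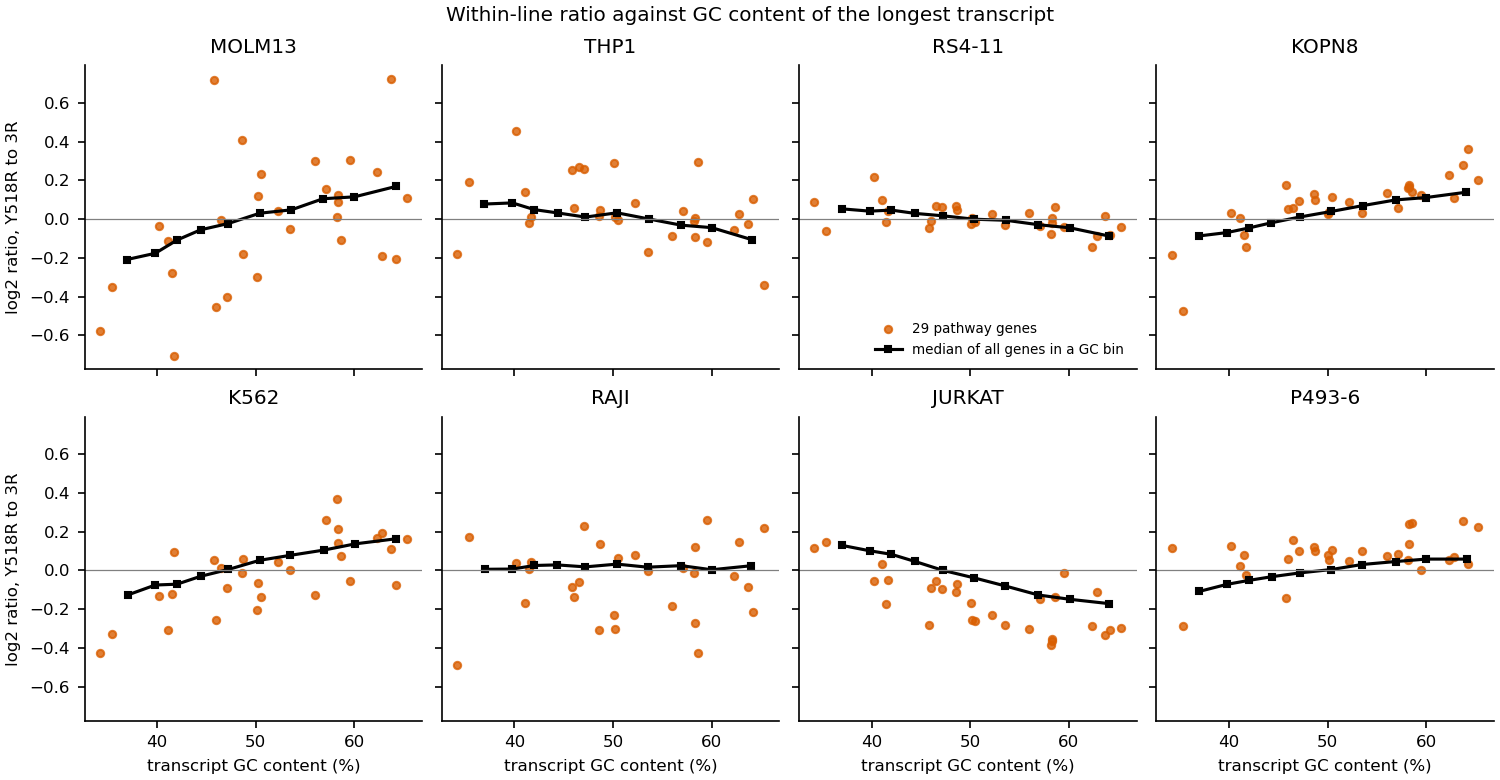
Log2 ratio, Y518R to 3R, against the GC content of the longest transcript in each line; orange points are the 29 genes and the black line joins the medians of all genes in 10 GC bins. In JURKAT the black line falls from 0.13 in the lowest bin to −0.17 in the highest and most orange points lie below it; in KOPN8 it climbs from −0.087 to 0.14.

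The lines differed from each other far more than the peptides did. The median gene of the list spanned 2.02 log2 units between its lowest and highest line. For the median gene the largest peptide difference within a line was 0.342 log2 units, and the median one was 0.108. The range between lines exceeded the largest peptide difference for 29 of 29 genes, as it did for 99.7% of all genes at 10 CPM or more, so this is no property of the list. With 3R alone, MLL-fusion lines were compared with the other lines (4 against 4): 0 of 29 genes passed, against 0.0534% of all genes, and 0 of 29 had an unadjusted p under 0.05, against 10.1%. The lowest p-values were those of ACACA, acetyl-CoA carboxylase (−0.45 ± 0.25), SCAP (−0.49 ± 0.29) and SREBF1 (0.61 ± 0.42).

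ACACA ranged from 122 CPM in KOPN8 to 291 in K562 with 3R and from 130 to 304 in the same lines with Y518R. SCAP ranged from 73.9 CPM in RAJI to 184 in P493-6 with 3R and from 72.5 to 191 with Y518R. In both genes the classes overlapped.

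**Figure D4:**
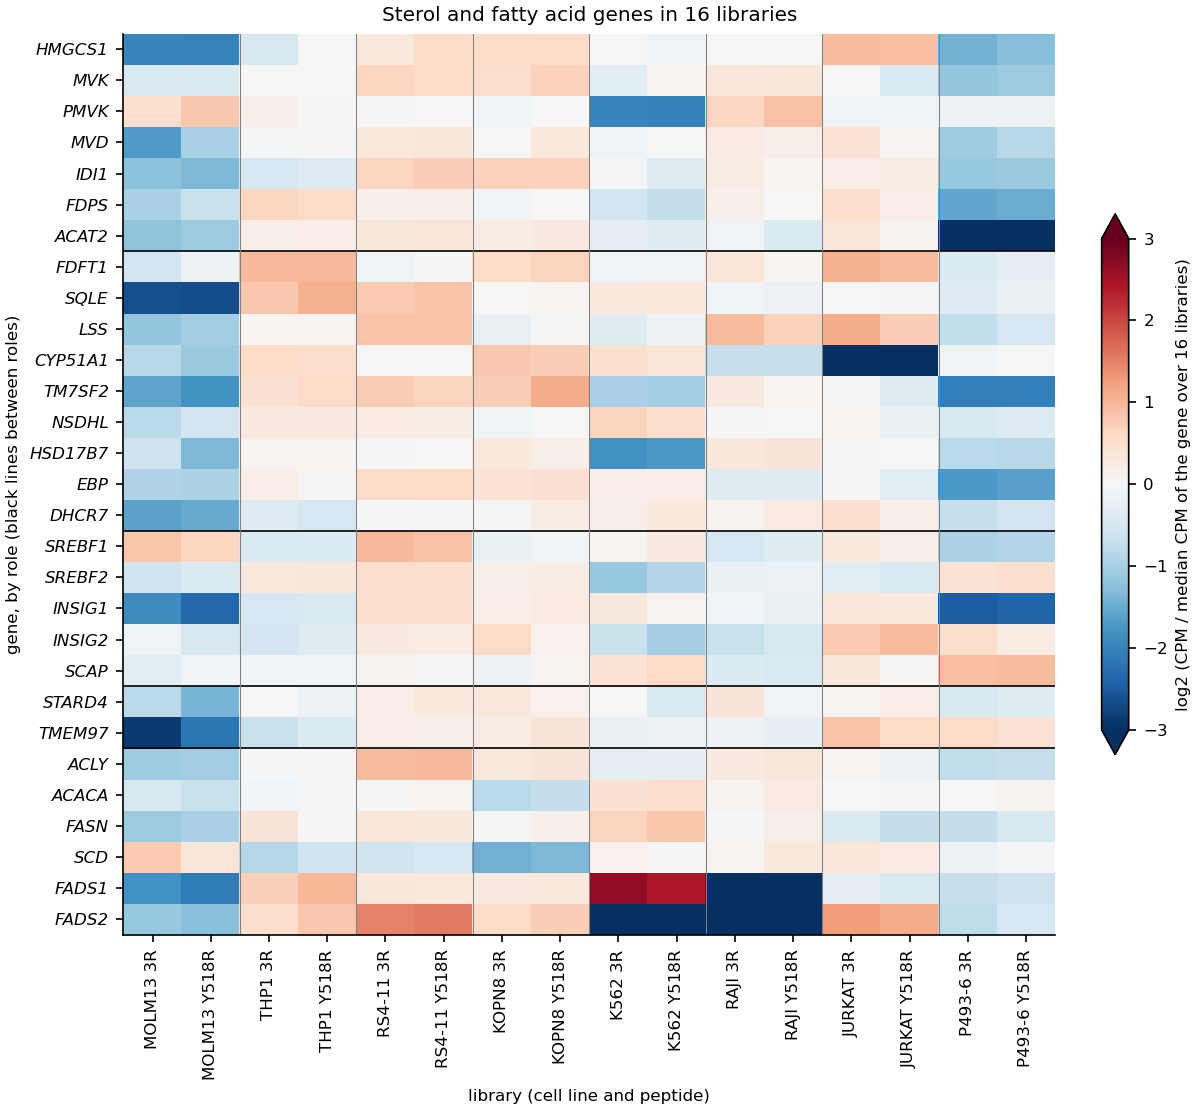
Level of the 29 genes (rows, by role) in 16 libraries (columns, in pairs by line) as the log2 ratio of CPM to the gene's median over the libraries; blue is low and red is high, and colours stop at 3 in either direction. Both libraries of a line look alike, and MOLM13 and P493-6 are blue for most sterol enzymes. Dark blue cells mark genes with 1 line far below the others, and FADS2 is low in K562 as well as in RAJI.

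MOLM13 and P493-6 had the lowest levels of the sterol enzymes. Relative to each gene's median over the lines, the median of the 16 sterol enzymes was −1.04 with 3R and −1.02 with Y518R in MOLM13, where 15 of 16 were below 0 with both peptides. In P493-6 it was −0.94 with 3R (16 of 16 below 0) and −0.84 with Y518R (15 of 16). All genes at 10 CPM or more had medians of −0.03 and 0.002 in these lines with 3R. The exception in MOLM13 was PMVK, phosphomevalonate kinase, at 56.0 CPM (3R) and 69.2 CPM (Y518R). The highest median was 0.31 with 3R and 0.39 with Y518R, in RS4-11.

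SREBF2 mRNA did not follow HMGCS1 across the 8 lines. RS4-11 was nonetheless the highest line with both peptides for SREBF2 and for the median of the 16 sterol enzymes. SREBF2 was at 597 and 633 CPM for P493-6, above all lines but RS4-11 with 3R and close to it with Y518R, while HMGCS1 and INSIG1 were low there. Over the 8 lines the log2 level of SREBF2 correlated with that of HMGCS1 at r = 0.054 with 3R and 0.077 with Y518R. For INSIG1 and HMGCS1 r was 0.916 and 0.948, for MVD 0.94 and 0.943, for IDI1, the isomerase of isopentenyl diphosphate, 0.917 and 0.924, for DHCR7, the last reductase, 0.945 and 0.848, and for STARD4 0.878 and 0.911. SCD was at −0.406 and −0.435. Some sterol enzymes did not move with HMGCS1 either: CYP51A1 was at −0.258 and −0.17 and PMVK at −0.238 and −0.226. HSD17B7 was at 0.368 and 0.643. Of the 28 other genes 14 had r of 0.7 or more with 3R and 13 with Y518R, against 6.29% and 6.21% of all genes at 10 CPM or more. By Spearman's rho the counts were 6 and 9 of 28, against 5.31% and 5.2%. These are descriptions over 8 points from the same lines, and MOLM13 and P493-6 are the low points of HMGCS1, INSIG1 and MVD.

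The order of lines for HMGCS1 was MOLM13, P493-6, THP1, RAJI, K562, RS4-11, KOPN8 and JURKAT with 3R. The levels of THP1, RAJI and K562 overlapped between peptides and changed places with Y518R, and the lines below and above them kept their places.

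In several genes 1 line lay well below all others, which does not mean that the other lines were alike. FADS2, for example, was also low in K562, at 32.3 and 34.0 CPM against medians of 350 (3R) and 410 (Y518R). A gene was counted when 1 line lay at least 3-fold below every other line with both peptides; these genes were chosen by their levels, so the levels are a description. This held for 7 of 29 genes, against 9.9% of all genes at a median of 10 CPM or more, and 0 of 29 had a line at least 3-fold above all others, against 1.66%. At 4-fold 4 of the 29 remained, against 735 of all 8967 genes, where 3-fold gave 888. The level of each in the low line was alike with both peptides, apart from TMEM97 in MOLM13.

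**Figure D5:**
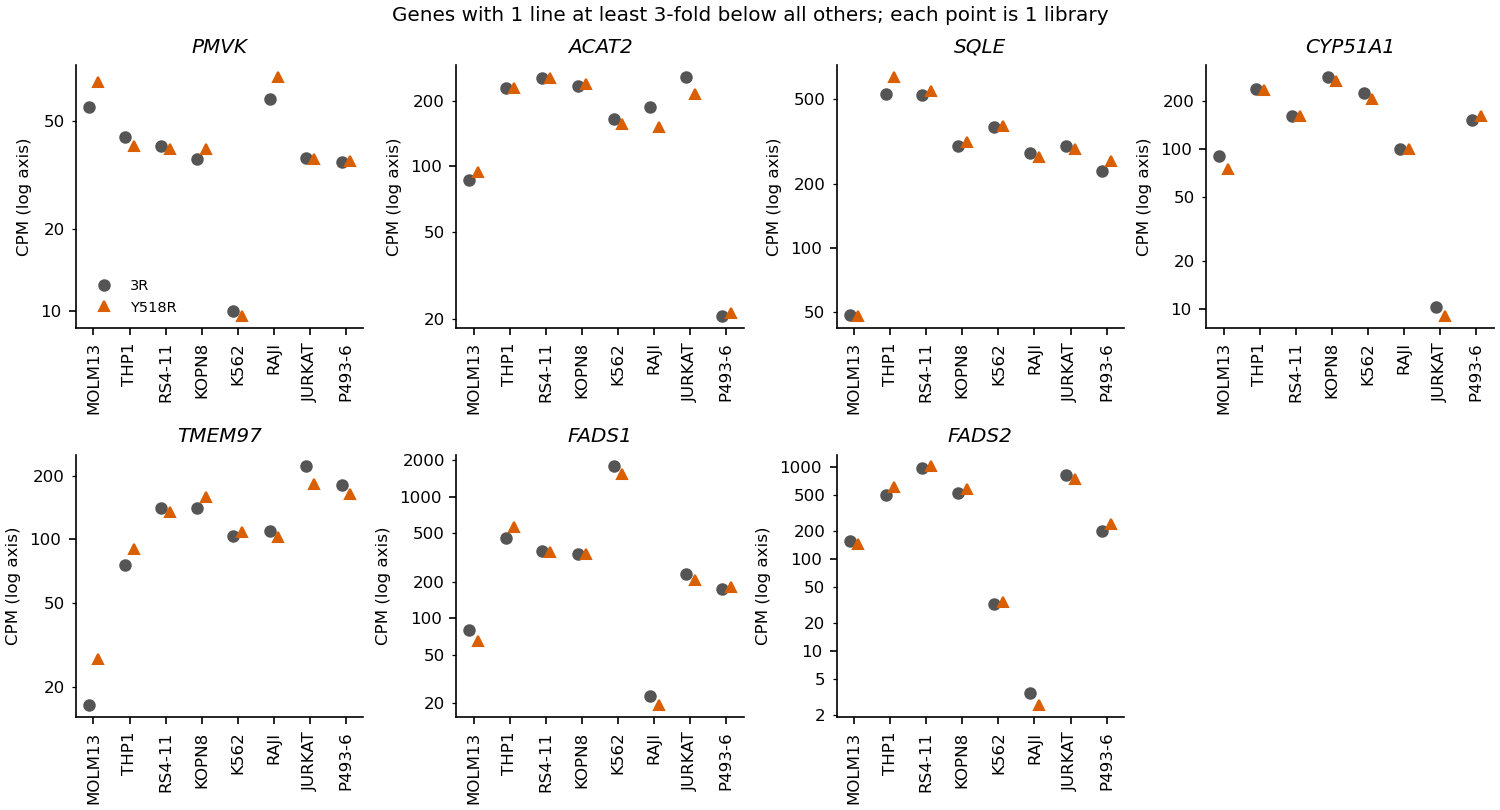
CPM (log axis) of the 7 genes with 1 line at least 3-fold below all others, by line; grey circles are 3R and orange triangles Y518R, each 1 library. The low line differs by gene: K562 for PMVK, P493-6 for ACAT2, MOLM13 for SQLE and TMEM97, JURKAT for CYP51A1 and RAJI for FADS1 and FADS2.

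CYP51A1, which removes the 14-alpha methyl group of lanosterol, was at 10.2 CPM (415 counts) with 3R and 9.02 (243 counts) with Y518R in JURKAT, 16- and 18-fold below the median of the other lines. Elsewhere it was at 91.1 and 75.2 CPM for MOLM13, 239 and 235 for THP1, 163 and 161 for RS4-11, 284 and 269 for KOPN8, 226 and 208 for K562, 101 and 101 for RAJI, and 154 and 163 for P493-6. JURKAT was thus the lowest line for CYP51A1 and the highest for HMGCS1. Of 6 neighbours measured in JURKAT 3R, AKAP9, ANKIB1 and KRIT1 were at 0.858, 1.02 and 1.09 of the other lines' median and FZD1 at 1.6, while GATAD1 was at 0.421 and CDK14 at 0.00316.

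ACAT2 in P493-6 was 11.1-fold below the median of the other lines with 3R (578 counts) and 10.1-fold with Y518R (623 counts). Of 6 neighbours measured, TCP1 was at 0.309 of the other lines' median with 3R, MRPL18 at 0.285, WTAP at 0.326 and IGF2R at 0.405, while SOD2 was at 0.619 and TAGAP at 0.738. In P493-6, 10.4% of all genes were at or below 0.5 of that median with both peptides. ACAT2 and TCP1 overlap on opposite strands, and SOD2 overlaps ACAT2 too. The strand setting of the counting was not given in the sources used here. CYP51A1 overlaps CYP51A1-AS1 and TMEM97 overlaps IFT20, so the same limit applies to them.

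FADS1 and FADS2, the delta-5 and delta-6 desaturases of polyunsaturated fatty acids, lie side by side. In RAJI FADS1 was at 22.8 CPM (436 counts) with 3R and 19.4 (374 counts) with Y518R, and FADS2 at 3.5 CPM (67 counts) and 2.59 CPM (50 counts), 142- and 223-fold below the median of the other lines. The neighbours measured were at 0.743 (FTH1) to 1.52 (FADS3) of the other lines' median in RAJI 3R. The pair was split in K562, where FADS1 was at 1780 and 1540 CPM, the highest line, and FADS2 at 32.3 and 34.0 CPM, the second lowest.
In the remaining lines FADS1 was at 80.0 and 65.0 CPM for MOLM13, 458 and 560 for THP1, 356 and 349 for RS4-11, 336 and 342 for KOPN8, 234 and 208 for JURKAT, and 173 and 183 for P493-6. FADS2 was at 157 and 145 CPM for MOLM13, 496 and 607 for THP1, 974 and 1020 for RS4-11, 526 and 579 for KOPN8, 826 and 750 for JURKAT, and 204 and 242 for P493-6. The 2 genes overlap on opposite strands in the RefSeq table, and the strand setting of the counting was not given in the sources used here. How reads in the shared stretch were counted is therefore not known.

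SQLE in MOLM13 was 6.27-fold (1138 counts) and 6.52-fold (1006 counts) below the median of the other lines, and TMEM97 8.45- and 4.98-fold. In MOLM13 3R the neighbours measured were at 1.04 (MYC) to 2.7 (TATDN1) of that median for SQLE. For TMEM97 they were at 0.405 (NLK) to 3.91 (KSR1). Of all genes, 10.7% in MOLM13 and 14.7% in K562 were at or below 0.5 of that median with both peptides. PMVK in K562 was at 9.95 CPM (231 counts) with 3R and 9.58 (291 counts) with Y518R, 4.06- and 4.11-fold below. Its neighbour PBXIP1 was at 0.173 of the other lines' median in K562 3R, and the others measured at 0.511 (ADAR) to 1.15 (SHC1).

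A further 37 genes of sterol synthesis, uptake and efflux, of SREBP processing and fatty acid elongation passed the filter, and 0 of them passed an adjusted p under 0.05 in edgeR in any of the 5 comparisons. At an unadjusted p under 0.05 there was 1 of 37 over the 8 lines (3.04% of all genes), 0 in the MLL-fusion lines (5.9%), 0 in the other lines (1.58%), 1 in the class difference (3.8%) and 4 between classes with 3R (10.1%). Over the 8 lines 20 of 37 were above 0 (49.1% of all genes), and the lowest p-values were those of ACACB, the mitochondrial acetyl-CoA carboxylase (−0.21 ± 0.092, 1 of 8 higher), and SC5DL, the sterol desaturase (−0.11). NPC1, which exports cholesterol from lysosomes, was at −0.19 in the MLL-fusion lines with a class difference of −0.28 ± 0.13, and SCD5 had a class difference of 0.62. In the other lines the lowest were SC5DL (−0.13) and SC4MOL (−0.12). Between classes with 3R, HSD17B12, a reductase of fatty acid elongation, was at 1.44 ± 0.52 and did not pass.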

How the data were processed

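Counts of mRNA sequencing reads per gene from 16 libraries of 8 established cell lines were used as the authors deposited them, raw and not normalized. Per the submitters' processing notes, the tools were DESeq, DESeq2 3.0, HTSeq 0.6.1, TopHat2 2.1.1 and CASAVA 1.8.4, with the builds hg19 and GRCh38 both named; which step each served, and how strand was handled in counting, were not stated there. The 5 rows of each file that name no gene entered neither library sizes nor tests; the report gives the share of reads outside genes.

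In R 4.3.3, edgeR 4.0.16 (TMM scaling, filterByExpr at a minimum count of 10, quasi-likelihood test, Benjamini-Hochberg over all genes) was fitted to all 16 libraries with cell line as the block, and to the 8 3R libraries for lines with and without an MLL fusion. Both libraries of a line come from the same line by the labels, which pairs them; within a line, deviations from peptide means had correlations of 0.945 to 0.972, and chi-square per degree of freedom between them was 8.57 to 64.2, so none was a copy. With 1 library per line and peptide, p-values of the peptide comparisons rest on how the change within a line varied between lines. Those of the comparison of classes with 3R rest on the spread of levels between lines. Part of either spread may be technical. Ratios in single lines used CPM (TMM factors, prior count 2) for genes at 10 CPM or more in either library. Counting intervals cover counting error only, since there was 1 library per line and peptide. Reads also carried no molecular identifiers, so a count may include copies of the same molecule. Motifs were searched in RefSeq promoters; GC content was that of the longest GENCODE transcript, known for 29 of 29 genes of the list and 87.6% of all genes tested. Alternatives were DESeq2 1.42.0, limma-voom (limma 3.58.1), other scaling, no filter, no block and leaving out each line.

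The genes of the list, the further pathway genes and the tests were chosen with earlier results of these data known. Genes given in full were SREBF1, SREBF2, INSIG1, HMGCS1, SQLE, SCD and FASN, any gene of the list called, and the 3 with the lowest p in each comparison; of the further pathway genes, those called or the 2 with the lowest p in each comparison, of which 1 is not reported here; and genes past 1.5-fold in a single line, named with it. Genes with 1 line at least 3-fold below all others were chosen after their values were seen.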

Additional observations from a re-analysis of the deposited data

Results flagged for a closer look

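Each of 87 groups of 8 values was checked for 1 line far from the others by Dixon's criterion at 95%, and 13 met it. The groups were the 3R levels, Y518R levels and log2 ratios of the 29 genes over the lines. The nominal rate of about 1 in 20 is no fair background here. The levels of a gene with each peptide are not independent, and the lines differ in origin. The share of all genes that meet the criterion was not computed, so the 13 are not read as an excess. Of these, 11 were levels and 2 were ratios.

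The levels that stood apart were all low. PMVK, phosphomevalonate kinase, was at 9.95 CPM (3R) and 9.58 CPM (Y518R) in K562. ACAT2, the cytosolic thiolase, was at 20.6 and 21.3 CPM for P493-6. SQLE, squalene epoxidase, was at 48.3 and 48.0 CPM for MOLM13, and TMEM97 at 16.5 and 27.2 CPM in the same line. CYP51A1, lanosterol demethylase, was at 10.2 and 9.02 CPM for JURKAT. For these 5 genes both libraries of the line stood apart. STARD4 in MOLM13 stood apart with Y518R, at 22.3 CPM, while its 3R level did not meet the criterion.

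The ratios were those of HSD17B7 in MOLM13, −0.705 on the log2 scale, and of ACLY in JURKAT, −0.228, where the other 7 lines were above 0. With the GC trend of the line taken off, they were −0.60 and −0.15. The part of depth was not tested.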

How the results depend on the processing

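The number of listed genes called was 0 in each of the 5 comparisons under every alternative run (DESeq2 size factors, no filter on low counts, DESeq2, limma-voom, no replicate block, a GC correction with the block, the Y518R or summed libraries for the comparison of classes, and each line left out). The median log2 change of the list, which was near 0 and not tested, did change sign: over the 8 lines it was 0.017, and −0.010 without the replicate block, −0.0035 with the GC correction, −0.0055 without MOLM13 and −0.0083 without KOPN8. In the other lines it was −0.022, and 0.037 without JURKAT. Between classes with 3R it was 0.046, and −0.024 without THP1, −0.048 without RS4-11, −0.068 without KOPN8 and −0.052 without P493-6. The median ratios in MOLM13, RS4-11 and K562, all within 0.01 of 0, changed sign too. In MOLM13 this was with the median of all genes taken off (0.0036), and in RS4-11 with the GC correction (0.0078). In K562 it was with DESeq2 size factors (−0.0155), with the GC correction (−0.055) and with the median taken off (−0.0087). The GC correction, the removal of the median ratio and the other fold marks were chosen after seeing the data. Without the replicate block, which pairs the libraries of a line, the number called stayed at 0 in the 4 peptide comparisons, and the log2 change of TMEM97 in the MLL-fusion lines was 0.14.

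Counts over all genes did move. Without a filter on low counts 3 genes passed over the 8 lines, 52 in the MLL-fusion lines, 1 in the other lines and 9 in the class difference, in place of 0. DESeq2 called 1 in the MLL-fusion lines, 2 in the class difference and 477 between classes with 3R, in place of 7. Limma-voom called 3 over the 8 lines, 20 in the MLL-fusion lines, 2 in the other lines, 2 in the class difference and 4 between classes with 3R. The Y518R libraries gave 4 between classes. Leaving out 1 line gave 0 to 3 in the MLL-fusion lines (3 without MOLM13, 1 without RS4-11), 0 to 1 in the class difference (1 without MOLM13 or THP1) and 4 to 11 between classes (4 without MOLM13, 11 without JURKAT). The number of listed genes with 1 line below all others was 4 at a 4-fold mark, in place of 7 at 3-fold. A higher mark gives fewer genes by construction, and of all 8967 genes 735 remained in place of 888. In single lines the counts above 0 were unchanged with DESeq2 size factors in JURKAT (3 of 29), KOPN8 (25 of 29) and P493-6 (25 of 28). The cause of the other differences was not tested. CYP51A1 in JURKAT and FADS2 in RAJI rested on 243 to 415 and on 50 to 67 counts a library.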
